A study of Mus musculus with 6 samples.

Results

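Coenzyme Q synthesis and binding genes were represented by 10 genes of the 30236 listed for 6 mouse liver tumors. They comprised 8 genes of the synthesis pathway (Pdss1, Coq2, Coq3, Coq4, Coq5, Coq6, Coq7 and Coq9) and 2 genes whose products bind coenzyme Q (Coq10a and Coq10b). The 10 were taken by symbol around Coq10b, which was itself chosen by its values in these libraries, since the study drew it in a network of mitochondrial genes picked on the same genotype contrast. The difference between genotypes is therefore a description for the members, and their calls in the fit over all genes are given as counts from which nothing is read.

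Coenzyme Q, or ubiquinone, is a lipid of the inner mitochondrial membrane that takes electrons from complex I, complex II and several other dehydrogenases and hands them to complex III. Its isoprenoid tail comes from the mevalonate pathway and is joined to a ring that a group of matrix enzymes, held together in a complex, then modifies step by step. The COQ10 proteins belong to a family of lipid-binding proteins, make no part of the molecule, and are needed for coenzyme Q to work fully in respiration.

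The tumors came from male C57BL/6 littermates, 3 WT and 3 Top1mt-KO, the latter lacking the mitochondrial topoisomerase gene in every cell. Mice of both genotypes received diethylnitrosamine, a liver carcinogen, on day 14 after birth, then carbon tetrachloride, which injures the liver, from week 8 for 14 weeks, and tumors were collected at week 22. Each library was made from bulk tumor, and the study describes the tumors of a genotype as independent without naming the mouse of each. Values are the authors' log2 expression values, and the depth of the libraries is unknown.

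The targeted gene, Top1mt, was read first. The log2 level of Top1mt was 7.71, 5.99 and 8.01 for WT replicates 1, 2 and 3 and 5.58, 6.41 and 6.32 for Top1mt-KO replicates 1, 2 and 3, as labelled. The library labelled WT replicate 2 lay below 2 of the 3 libraries labelled Top1mt-KO, against its label, and every direction given here rests on the labels. A transcript of a deleted gene can still be made in part, which values per gene do not resolve. The library labelled Top1mt-KO replicate 1 stood apart in another way. Its most abundant gene was Gm42418, at 22.0 against 11.7 to 15.8 in the other libraries, whereas Alb, the albumin gene, was the most abundant gene in each of the other 5. Some differences are therefore also given without these libraries. The labelled tissue was checked with 8 hepatocyte markers, whose summed log2 level ran from 20.6 to 21.4, with Alb the most abundant and Asgr1 the least, at a mean of 12.1. All 8 were thus well expressed, as the labelled tissue calls for.

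Coq10b was lower in all 3 libraries labelled Top1mt-KO than in any labelled WT, with group means apart by 2.10-fold. Its paralog Coq10a had nearly the same mean in both genotypes, and so had the average of the 8 synthesis genes. Coq5 was the 1 other member whose genotypes did not overlap, by a narrow margin. Among all genes tested 8.28% had no overlap, and nothing is read from the number of members without it. All 10 members lay above the filter on low values, which left 22677 genes tested.

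**Figure D1:**
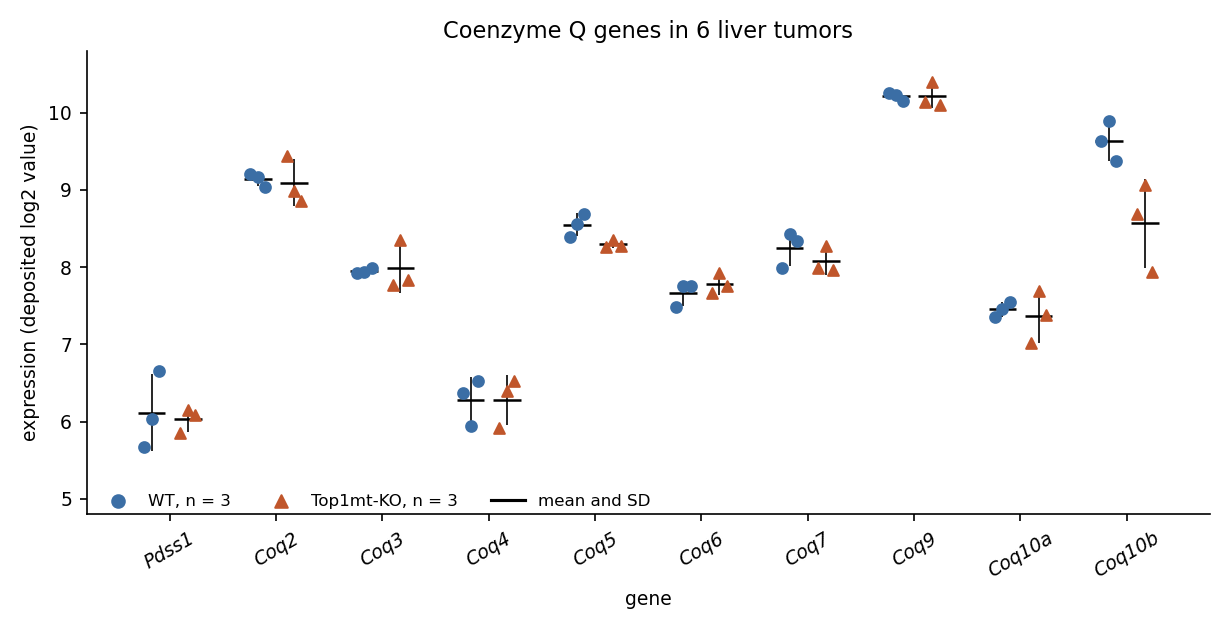
Deposited log2 values of the 10 coenzyme Q genes in 3 WT (circles) and 3 Top1mt-KO (triangles) liver tumors, each point a library, horizontal lines the group means and vertical lines the SD. Coq10b lay between 9.38 and 9.89 in WT and between 7.94 and 9.06 in Top1mt-KO, whereas the points of both genotypes overlapped for every other gene but Coq5.

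To compare genes with one another, the log2 of each gene's exon length in kilobases was subtracted from its log2 value, which gives a level per kilobase. On this scale Coq9 was the most abundant member, at a mean of 8.60 over the 6 libraries, and Coq2 came next at 7.72. Coq10b (6.84) and Coq5 (6.82) followed, and their order differed between the genotypes. In WT, Coq10b averaged 7.37 per kilobase and lay above Coq5 in 3 of 3 libraries, while in Top1mt-KO it averaged 6.30, below Coq5 at 6.69 and Coq3 at 6.40, and lay above Coq5 in 1 of 3. Coq3 (6.38), Coq6 (6.07) and Coq10a (6.04) held the middle, and Coq6 exceeded Coq10a in 3 of 6 libraries. Coq7 (5.48), Coq4 (4.52) and Pdss1 (3.99) were the least abundant. From the top to the bottom of this order the mean level per kilobase spanned 4.61. Among neighbours in this order, the ranges over the libraries were separate only between Coq9 and Coq2 and between Coq7 and Coq4. Within libraries more of the order held. Coq2 exceeded Coq10b, Coq3 exceeded Coq6, Coq10a exceeded Coq7 and Coq4 exceeded Pdss1 in 6 of 6 libraries, and Coq5 exceeded Coq3 in 5 of 6, so the neighbours least ordered were Coq10b with Coq5 and Coq6 with Coq10a.

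The first steps build the tail and attach it to the ring. Pdss1 (chr2:22895522-22940266), a subunit of the synthase that lengthens the isoprenoid chain, had log2 values of 5.67, 6.04 and 6.65 in WT and of 5.85, 6.15 and 6.08 in Top1mt-KO. Coq2 (chr5:100654723-100675140), the transferase that joins the tail to the ring, had 9.20, 9.17 and 9.04 in WT and 9.43, 8.99 and 8.85 in Top1mt-KO. In both genes the 2 genotypes overlapped. The Top1mt-KO mean minus the WT mean was -0.09 for Pdss1 and -0.04 for Coq2, less than the spread within a group. That of Pdss1 was -0.31 without WT replicate 1 and 0.18 without WT replicate 3, so its sign was not settled. Without Top1mt-KO replicate 1, the highest library for Coq2, its difference was -0.21 and its genotypes no longer overlapped (-0.20 without both libraries named above), and without Top1mt-KO replicate 3 it was 0.08.

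The ring is then hydroxylated and methylated. The hydroxylase gene Coq6 (chr12:84361657-84373796) had 7.48, 7.75 and 7.75 in WT and 7.66, 7.92 and 7.75 in Top1mt-KO, a difference of 0.12. Coq7 (chr7:118509659-118533356), the hydroxylase of a late step, had 7.98, 8.43 and 8.34 in WT and 7.99, 8.27 and 7.96 in Top1mt-KO, a difference of -0.18. Both overlapped between the genotypes in the 6 libraries. Without the library labelled WT replicate 2 and Top1mt-KO replicate 1, Coq6 differed by 0.22 with no overlap and Coq7 by -0.05. Without WT replicate 1 Coq6 differed by 0.03 and Coq7 by -0.31, the latter with no overlap. Whether these hydroxylase genes separated the genotypes thus depended on which libraries were kept. The O-methyltransferase gene Coq3 (chr4:21879673-21912162) had 7.92, 7.93 and 7.99 in WT and 7.77, 8.35 and 7.83 in Top1mt-KO, so its Top1mt-KO libraries lay on both sides of the WT ones. Its difference was 0.04, with 0.14 without Top1mt-KO replicate 1 and -0.15 with no overlap without Top1mt-KO replicate 2. The C-methyltransferase gene Coq5 (chr5:115279666-115296972) had 8.39, 8.56 and 8.69 in WT and 8.26, 8.35 and 8.28 in Top1mt-KO. These groups did not overlap, by a margin of 0.037 between the highest Top1mt-KO and the lowest WT library. The group means of Coq5 differed by -0.25 (standard error 0.14).

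Coq9 (chr8:94838321-94854895), a lipid-binding partner of Coq7, had the narrowest range of the 10. It had 10.25, 10.22 and 10.15 in WT and 10.14, 10.39 and 10.10 in Top1mt-KO, and its range over the 6 libraries was 0.29. Its difference was 0.005, and -0.09 with no overlap without Top1mt-KO replicate 2. Coq4 (chr2:29787493-29797935), another component of the synthesis complex, had 6.38, 5.95 and 6.52 in WT and 5.92, 6.40 and 6.52 in Top1mt-KO. The lowest Coq4 values were those of the library labelled WT replicate 2 and of Top1mt-KO replicate 1, and the group means were nearly equal. The Coq4 difference was -0.17 without the former and 0.18 without the latter. The mean of the 8 synthesis genes was 7.91, 8.01 and 8.14 in WT and 7.88, 8.10 and 7.92 in Top1mt-KO, a difference of -0.05 (standard error 0.096). That difference was 0.010 without WT replicate 3 and -0.12 without Top1mt-KO replicate 2. The median difference of the 8 genes was -0.023, beside -0.015 for all genes tested. Both medians were close to 0, and that of the 8 genes took the opposite sign in 3 of the 8 alternatives that moved it, at 0.020 without Top1mt-KO replicate 1.

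Coq10b (chr1:55052770-55072702) had log2 values of 9.63, 9.89 and 9.38 in WT and of 8.69, 9.06 and 7.94 in Top1mt-KO. The highest Top1mt-KO library lay 0.32 below the lowest WT library, and Top1mt-KO replicate 3 was the lowest of all 6. It averaged 9.64 ± 0.26 (SD, n = 3) in WT against 8.56 ± 0.57 (SD, n = 3) in Top1mt-KO, a difference of -1.07. Its standard error was 0.28 by limma, which borrows the spread of other genes, and 0.36 from these libraries alone. Standard errors of other single genes are limma's, and those of a mean over genes or of one gene minus others come from the libraries alone. The size of this difference lay at percentile 96.5 of all genes tested, and the range of Coq10b over the libraries, 1.95, at percentile 84.9. Coq10b was picked on this same contrast, which fixes a high rank beforehand, so nothing is read from either percentile. In bulk tumor, fewer cells of a type that expresses a gene and less of its RNA per cell cannot be told apart. Without the library labelled WT replicate 2 the difference was -0.94, without Top1mt-KO replicate 1 it was -1.13, and without both it was -1.005. Leaving out Top1mt-KO replicate 3 gave -0.76, the smallest size of any library left out, and Top1mt-KO replicate 2 gave -1.32, the greatest. The groups did not overlap in any of these fits.

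Coq10a (chr10:128363100-128368997), the paralog, had 7.35, 7.45 and 7.55 in WT and 7.01, 7.69 and 7.37 in Top1mt-KO. Its Top1mt-KO libraries held both the lowest and the highest value. It averaged 7.45 ± 0.10 (SD, n = 3) in WT against 7.36 ± 0.34 (SD, n = 3) in Top1mt-KO, a difference of -0.09 (standard error 0.21) that became 0.08 without Top1mt-KO replicate 1 and -0.26 without Top1mt-KO replicate 2. The direction for Coq10a thus depended on the libraries kept.

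Subtracting the paralogs within each library removes what both share. Per kilobase, Coq10b exceeded Coq10a by 1.38, 1.54 and 0.93 in WT and by 0.78, 0.47 and -0.33 in Top1mt-KO, so that Coq10a was the more abundant paralog in Top1mt-KO replicate 3 and Coq10b in the other 5 libraries. The mean excess was 1.28 ± 0.32 (SD, n = 3) in WT against 0.30 ± 0.57 (SD, n = 3) in Top1mt-KO. The groups did not overlap, by 0.15, and differed by -0.98 (standard error 0.38), with -1.09 when the library labelled WT replicate 2 and Top1mt-KO replicate 1 were both left out and -0.66 without Top1mt-KO replicate 3. Of the single libraries left out, the last moved the paralog difference most.

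The paralogs were next set against the synthesis genes. The log2 value of Coq10b minus the mean of the 8 synthesis genes was 1.72, 1.89 and 1.24 in WT and 0.81, 0.96 and 0.018 in Top1mt-KO. The mean of this quantity was 1.62 ± 0.34 (SD, n = 3) in WT against 0.60 ± 0.51 (SD, n = 3) in Top1mt-KO, a difference of -1.02 (standard error 0.35) with no overlap, and of -0.99 without both libraries named above. The same quantity for Coq10a was -0.55, -0.55 and -0.59 in WT and -0.86, -0.41 and -0.55 in Top1mt-KO. The Top1mt-KO values of Coq10a lay on both sides of the WT ones, with a genotype difference of -0.04 (standard error 0.14) that was 0.088 without Top1mt-KO replicate 1 and -0.14 without Top1mt-KO replicate 2.

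By limma, 0 of the 22677 genes passed an adjusted p under 0.05 (0% of the genes), and so 0 members did. An unadjusted p under 0.05 was reached by 985 genes (4.34%), 1 of them a member, Coq10b. The groups did not overlap in 1877 genes (8.28%), of which 981 were lower in Top1mt-KO (4.33%) and 896 higher (3.95%). Of the 10 members 2 did not overlap, Coq10b and Coq5, both lower in Top1mt-KO. Coq10b was picked on the same contrast and the other members by symbol around it, so nothing is read from these shares.

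The rest of the pathway was taken from lists of genes that are not members. None of the genes in these lists passed an adjusted p under 0.05 by limma. Among 9 other synthesis genes, 4 were higher and 5 lower in Top1mt-KO, with a median difference of -0.05, and 1 had an unadjusted p under 0.05, Coq8a. The median ran from -0.10 to 0.076 with one library left out. Coq8a and Coq8b encode related atypical kinases that support the synthesis complex. Coq8a had log2 values of 11.00, 10.03 and 10.66 in WT and of 10.81, 11.98 and 11.70 in Top1mt-KO. Coq8b had 9.86, 9.79 and 9.70 in WT and 10.001, 8.69 and 9.07 in Top1mt-KO. In Top1mt-KO replicates 2 and 3 the log2 value of Coq8a exceeded that of Coq8b by 3.30 and 2.63, against 0.24 to 1.14 in the other 4 libraries, so Top1mt-KO replicate 1 lay with the WT libraries in this quantity. The genotype difference was 0.93 (standard error 0.34) for Coq8a and -0.53 (standard error 0.30) for Coq8b, with overlap in both. With one library left out, Coq8a ran from 0.67 (WT replicate 2) to 1.28 (Top1mt-KO replicate 1) and Coq8b from -0.91 (Top1mt-KO replicate 1) to -0.25 (Top1mt-KO replicate 2), and without Top1mt-KO replicate 1 neither overlapped. Pdss2, the partner subunit of Pdss1 in the tail synthase, had 7.44, 7.33 and 7.44 in WT and 7.70, 7.60 and 7.58 in Top1mt-KO. It was the 1 gene of these 9 without overlap, higher by 0.22 in Top1mt-KO.

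Upstream of the tail, 9 genes of the mevalonate pathway had a median difference of 0.020, with 5 higher, 4 lower and 0 at an unadjusted p under 0.05. All 9 overlapped between the genotypes. The median ran from -0.28 without WT replicate 1 to 0.27 without WT replicate 3, so it had no settled sign. Downstream, 12 genes of enzymes that reduce coenzyme Q, complex I aside, had a median of 0.065, with 7 higher and 5 lower, and the median ran from -0.093 to 0.12 with one library left out. All 12 overlapped between the genotypes, and 1 had an unadjusted p under 0.05. That gene was Prodh, the proline dehydrogenase, with 9.88, 8.82 and 9.93 in WT and 8.09, 8.92 and 8.88 in Top1mt-KO, where the library labelled WT replicate 2 lay with those labelled Top1mt-KO. Its difference was -0.92, with -1.28 and no overlap without that library and -0.65 without Top1mt-KO replicate 1. The study had drawn Prodh in the same network as Coq10b. Nqo1, a cytosolic quinone reductase, ranged widely within both groups and differed by -0.82 (standard error 0.88), with -1.57 without Top1mt-KO replicate 2 and 0.17 without Top1mt-KO replicate 3. The 9 genes of nuclear-encoded subunits of complex III, which takes electrons from reduced coenzyme Q, had a median of 0.14, with 8 higher, 1 lower and 0 without overlap. Without Top1mt-KO replicate 1, or without replicate 2, 5 were higher and 4 lower, with medians of 0.022 and 0.24, and the median was at most 0.25 with any library left out. Of 10 regulators and markers of mitochondrial content 3 were higher and 7 lower, with a median of -0.09, and 5 were higher and 5 lower without Top1mt-KO replicate 1, with a median of -0.04, and the median was -0.14 without WT replicate 3. Esrra, a nuclear receptor that drives mitochondrial genes, had 8.72, 8.85 and 8.77 in WT and 8.14, 8.50 and 8.33 in Top1mt-KO and was the 1 gene of that list without overlap, lower by a difference of -0.46, and of -0.55 to -0.37 with one library left out. For comparison, all genes tested had 10817 higher and 11860 lower, and the median of the absolute difference was 0.21.

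**Figure D2:**
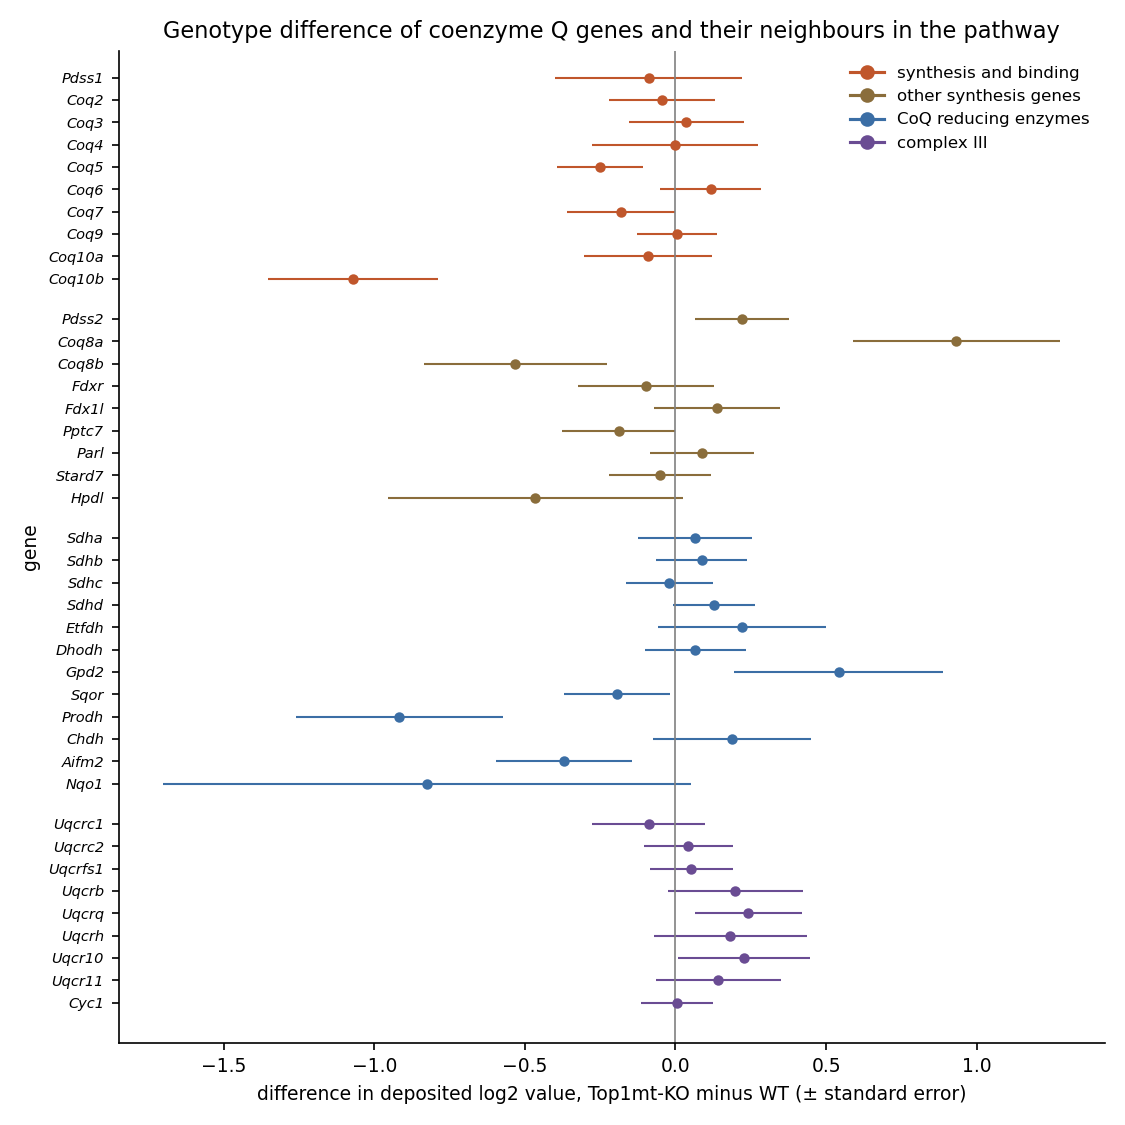
Difference of the deposited log2 value, Top1mt-KO minus WT, for the members and for other genes of coenzyme Q synthesis and use, with points the differences and lines one standard error to each side. Coq10b lay at -1.07 and the 8 synthesis genes between -0.25 and 0.12, while Coq8a lay at 0.93 and Prodh at -0.92.

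The profile of Coq10b over the 6 libraries was compared with that of every gene that passed the filter and varied by an SD of at least 0.3. Genes were ranked from the highest r down, so those with a strongly negative r were not counted as alike. Of 14196 genes, the 5 most like Coq10b by Pearson's r were Cnnm1 (0.984), Gm5540 (0.983), Them4 (0.982), Ciart (0.979) and Vnn3 (0.978). Spearman's rho was 1 for each but Vnn3, at 0.943. These correlations describe 6 libraries whose genotypes already separate in Coq10b, so each r includes that gap, and with so many genes compared high values are common. Ciart, a repressor of the circadian clock, and Them4, a mitochondrial thioesterase, had been picked by the study on these libraries. Coq10a was most like other genes. Of 14197, the closest were Wisp2 (0.997), Bcl2l12 (0.993), Mir505 (0.987), Dpf1 (0.986) and Nalcn (0.982), with rho of 0.943 or 1. All 5 overlapped between the genotypes, as Coq10a did. The r between Coq10b and Coq10a themselves was 0.29. Some of the closest genes lay low on a log2 scale that has no known detection limit. Nalcn ran from 0.098 in Top1mt-KO replicate 1 to 2.51 in Top1mt-KO replicate 2, and Cnnm1 fell to 0.73 in Top1mt-KO replicate 3.

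Genes of the circadian clock and its output cycle over the day in liver, and some of them had a high r with Coq10b across the libraries. Of 18 such genes 13 were lower and 5 higher in Top1mt-KO, with a median difference of -0.82. Without Top1mt-KO replicate 3 the counts were the same and the median was -0.30, without Top1mt-KO replicate 2 it was -1.16, and without the library labelled WT replicate 2 and Top1mt-KO replicate 1 it was -0.85. By limma, 9 of them reached an unadjusted p under 0.05, beside 4.34% of all genes tested, and 0 passed an adjusted p under 0.05. The groups did not overlap in 9, beside 8.28% of all genes tested. Of these 9, 7 were lower and 2 higher, and the counts without overlap held without Top1mt-KO replicate 3. Ciart had 8.06, 8.07 and 7.38 in WT and 5.64, 6.42 and 4.81 in Top1mt-KO. Dbp, a transcription factor that binds D-boxes, had 10.51, 11.01 and 10.49 in WT and 9.79, 9.97 and 6.63 in Top1mt-KO. Arntl, the partner of Clock in the activator that binds E-boxes, had 5.86, 4.75 and 5.29 in WT and 6.90, 5.88 and 9.42 in Top1mt-KO, and was thus higher there. Top1mt-KO replicate 3, the lowest library for Coq10b, was also the lowest for 12 of the 18 clock genes (66.7%), against 22.4% of all genes tested. In the other lists this share ran from 0%, as for the hepatocyte markers, to 50% for the enzymes that reduce coenzyme Q. The clock list was chosen with earlier results of these data known, and its genes are not independent of one another. Nothing is therefore read from its counts and shares. The r with Coq10b was 0.93 for Dbp, 0.93 for Tef, 0.92 for Per3, -0.95 for Arntl and -0.986 for Clock over the 6 libraries. It was 0.19 for Nr1d1, a clock repressor with overlapping groups, 0.51 for Bhlhe41, 0.65 for Tsc22d3 and 0.75 for Cry2. Each r includes the gap between the genotypes in Coq10b. The time of day at which the tumors were taken was not given in the sources used here, and the part of the clock genes in the Coq10b values was not tested.

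**Figure D3:**
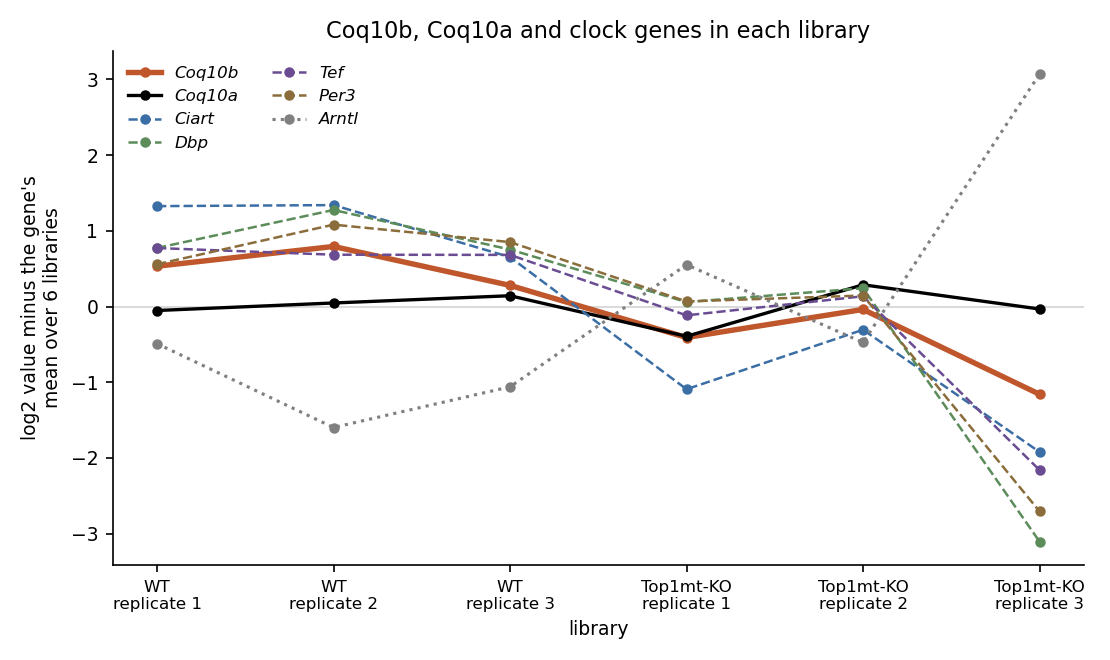
Log2 value minus the gene's mean over the 6 libraries, for Coq10b, Coq10a and 5 clock genes, by library, with lines joining the points of a gene as a guide to the eye. Coq10b, Ciart, Dbp, Tef and Per3 were lowest in Top1mt-KO replicate 3 and Arntl was highest there, while Coq10a stayed near its mean in that library.

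The promoters of the paralogs are shown because their genes went apart across the libraries. RefSeq windows on GRCm38.p6, 250 bases before the start of transcription, were found for 9 of the 10 members, as 11 windows, and the member without an entry was Coq5. Windows were searched on both strands for an E-box (CACGTG) and a D-box (TTATGTAA or TTACGTAA), the letters read by clock factors, which were chosen with the values above known. The Coq10b window, chr1:55052520-55052769 on the plus strand, held an E-box whose first base lay 78 bases before the start and a D-box on the opposite strand, 162 bases before it. These do not overlap and are in capitals in the sequences below, where the D-box reads TTACATAA. Coq10a has 2 windows on the minus strand, chr10:128370038-128370287 (upstream start) and chr10:128368981-128369230 (downstream start), and neither held these letters.
Coq10b: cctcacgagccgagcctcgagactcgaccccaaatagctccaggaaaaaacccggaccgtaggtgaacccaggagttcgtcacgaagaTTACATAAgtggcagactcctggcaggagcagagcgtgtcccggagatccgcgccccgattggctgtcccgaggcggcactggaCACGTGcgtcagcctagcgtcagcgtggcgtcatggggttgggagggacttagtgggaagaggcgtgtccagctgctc
Coq10a, upstream start: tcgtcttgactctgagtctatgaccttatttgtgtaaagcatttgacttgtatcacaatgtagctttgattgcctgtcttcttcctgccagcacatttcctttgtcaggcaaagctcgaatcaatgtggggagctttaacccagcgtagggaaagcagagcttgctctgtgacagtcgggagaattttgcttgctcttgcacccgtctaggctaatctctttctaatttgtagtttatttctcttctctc
Coq10a, downstream start: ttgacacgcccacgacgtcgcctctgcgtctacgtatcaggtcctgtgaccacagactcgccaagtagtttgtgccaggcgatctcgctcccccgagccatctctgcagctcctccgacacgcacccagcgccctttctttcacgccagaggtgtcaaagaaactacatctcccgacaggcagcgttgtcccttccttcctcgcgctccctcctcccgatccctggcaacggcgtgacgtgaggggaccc

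Among all 32851 promoter windows of the table, 6.02% held the E-box and 0.931% the D-box. Coq4, which did not follow Coq10b across the libraries (r = -0.29), also held an E-box but no D-box, 56 bases before its start, in the window chr2:29787243-29787492 on the plus strand. The D-box occurred in 1 of the 11 member windows, that of Coq10b, and the E-box in 2. The shorter TGACG, the core of the cAMP response element, occurred in 17.8% of all windows and in 4 of the 11 member windows. The Coq10b window held 4 copies, that of Coq9 held 2, and the downstream Coq10a window and that of Coq2 held 1 each. The full element TGACGTCA (1.55% of all windows), the GABP letters CCGGAAG (6.91%), the ERR letters TCAAGGTCA (0.387%), the AP-1 letters TGANTCA (6.75%), the amino acid response letters TGATGCAA (0.791%) and the NRF1 palindrome (0.782%) occurred in 0 of the 11. A match describes letters only, and no binding was measured in these tumors.

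Other lists were read for their genotype differences. Of 10 immediate early genes, which respond within the hour to handling or injury, 8 were lower and 2 higher in Top1mt-KO, with a median difference of -0.46 and 1 without overlap, the phosphatase gene Dusp1, at -0.83. The median of this list ran from -0.52 without WT replicate 2 to -0.027 without WT replicate 3. Of 6 bile duct markers 4 were lower and 2 higher in Top1mt-KO, with a median difference of -1.25 (-0.60 without WT replicate 3, -1.64 without WT replicate 2), and 2 did not overlap, both lower. These were Krt19, with 6.11, 4.75 and 6.93 in WT and 2.86, 4.38 and 2.502 in Top1mt-KO, and Epcam, at a difference of -1.19. Krt7 differed by -2.20 and Cldn4 by -1.31, with overlapping groups. Without WT replicate 3 the difference was -0.57 for Cldn4 and -0.64 for Epcam. Krt7 had no overlap when WT replicate 2 or Top1mt-KO replicate 2 was left out. The 4 lower markers were thus apart from Sox9 and Spp1, which differed by 0.15 and 0.045, with signs that changed with the library left out. The summed level of the 6, carried by Spp1, was 12.6, 12.2 and 11.6 in WT and 12.0, 11.7 and 12.6 in Top1mt-KO, so the sum does not show the lower level of the less abundant markers. Of 5 red blood cell markers 4 were lower and 1 higher, with 2 lower without overlap (4 without Top1mt-KO replicate 1), and the summed level of the 5, led by Hbb-bs, was 12.8, 11.9 and 12.0 in WT and 11.8, 11.3 and 11.7 in Top1mt-KO. The globin genes were the 4 lower ones, whereas Alas2, an enzyme of heme synthesis in red cell precursors, had nearly the same mean in both genotypes.

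The remaining lists were of other cell types and of the tumor itself. Of the 8 hepatocyte markers 1 was higher without overlap. Their summed level was 20.92, 21.33 and 20.62 in WT and 21.45, 20.87 and 21.18 in Top1mt-KO. The difference in this sum was 0.21 with overlap, and its size depends on the libraries kept. Cyp2e1, a marker of hepatocytes near the central vein, was 1 of the 4 lower hepatocyte markers, at -0.89 with overlap. Its difference was -0.58 with overlap without Top1mt-KO replicate 1. It was -1.24 without Top1mt-KO replicate 3 and -1.05 without WT replicate 2, both with no overlap. Of 5 endothelial markers 2 were higher without overlap, with a summed level led by Stab2 that differed by 0.16. Of 4 T cell markers 1 was higher and 1 lower without overlap, with a summed level led by Cd4 of 5.34 to 5.75. None of the 6 macrophage markers, led by Cd5l at a summed 12.1 to 13.3, was without overlap, nor of the 4 B cell markers, led by Cd79b at 6.16 to 7.76. The number of genes without overlap in these lists changed with the library left out. Of 6 stellate cell and fibroblast markers 5 were lower and 1 higher, with a median difference of -0.41 that was 0.11 without Top1mt-KO replicate 1 and -0.83 without Top1mt-KO replicate 2. Lrat, which esterifies retinol for storage, differed by -0.79 with overlap. The 6, led by Col3a1, summed to 14.21, 13.04 and 12.76 in WT and 11.91, 13.80 and 13.03 in Top1mt-KO. The 5 liver tumor markers, led by Afp, summed to 13.99, 12.57 and 11.67 in WT and 13.43, 10.94 and 10.81 in Top1mt-KO, a difference of -1.02, and 0 of them were without overlap. In this sum Top1mt-KO replicate 1 lay above WT replicates 2 and 3, so the size of the difference depends on the libraries kept. Of these 5 tumor markers 4 were lower, with a median of -0.44, which ran from -1.07 without WT replicate 3 to -0.041 without Top1mt-KO replicate 3. Without Top1mt-KO replicate 1 all 5 were lower and 3 did not overlap. The mean over the libraries was above 0 on the log2 scale for every marker in these lists, but the scale has no known detection limit. The part of cell composition in the Coq10b values was not tested.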

How the data were processed

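The 6 libraries were grouped by the genotype in the labels, 3 WT and 3 Top1mt-KO. The deposited table gives the authors' log2 expression for each gene symbol, and its values run from -2.24 to 22.0. Their transform is not stated, and depth cannot be recovered. They may be a regularized log, which shrinks weakly expressed genes, but this was not tested. The submitters' processing notes name bcl2fastq 2.17, Trimmomatic 0.36, STAR 2.5.1, Subread, DESeq2 and GRCm38, whereas the study's methods name BWA and an older mouse build, so aligner and build are uncertain. Libraries were stranded, but use of strand in counting is not stated. Of the file, 3 unnamed columns were not used.

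The fit used limma 3.58.1 under R 4.3.3 (lmFit and eBayes with trend, Benjamini-Hochberg) over genes with a mean above the lowest 25%, and the procedure was tested on simulated data. Exon lengths and positions came from GENCODE on GRCm38. Named genes were the members, Top1mt, the lists and the 5 genes most like Coq10b or Coq10a. Some genes of the lists are not reported here by name. Members and lists were chosen with earlier results of these data known. Alternatives were other filters, quantile normalization, no trend, a replicate block, each library left out, and 2 libraries left out together. The values of lists without libraries were added after seeing the data.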

Additional observations from a re-analysis of the deposited data

How the results depend on the processing

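By limma, 4 genes passed an adjusted p under 0.05 with no filter on low values (1700049E15Rik, Gm14130, Gm25081 and Gm26962, named after their values were seen), and 0 to 1 with one library left out, the 1 being Prom1 without Top1mt-KO replicate 1. The causes were not tested. The other alternatives gave 0, and all gave 590 to 1356 genes at an unadjusted p under 0.05. With the replicate block 0 passed, and 912 had an unadjusted p under 0.05. Deviations from the group mean correlated at -0.123, -0.0759 and 0.0520 between libraries of equal number. The libraries were treated as unpaired, but correlations over all genes cannot exclude a shared litter or batch. For Coq10b, replicates 2, 1 and 3 ran from high to low in both genotypes.

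Filters, trend and block leave a member's difference as it is. In the 8 alternatives that moved it, the differences of Coq10b, Coq5, Coq6 and Coq7 kept their sign, whereas those of Coq4 changed it in 5, of Coq2, Coq9 and Coq10a in 2 each, and of Pdss1 and Coq3 in 1 each. Differences from Coq10b to Coq10a ran from -1.22 to -0.66 with one library left out, and from Coq10b to the synthesis mean from -1.21 to -0.73. Exons shared with genes on the opposite strand made up 7.14% of the exon length of Coq10b, 27.1% of that of Coq4 (with Trub2), 9.44% of Pdss1, 4.07% of Coq6 and 1.24% of Coq9, and reads there cannot be assigned if strand was not used. The groups hold 3 tumors each and the depth is unknown, which limits the precision of every difference.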
